A study of Caenorhabditis elegans with 16 samples.

Results

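The widest contrast of an optogenetic muscle stress experiment in Caenorhabditis elegans was examined: worms that received both blue light and the cofactor all-trans retinal (ATR) against worms that received neither. Its members are the 4 libraries labelled light plus ATR and the 4 labelled dark minus ATR, 8 of the 16 libraries of the series, and both factors differ between them. The other 8 libraries, light minus ATR and dark plus ATR, entered the same statistical fit and serve to show what each factor did alone. The contrast asks how worms given the full treatment differ from worms given none of it.

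All worms, the untreated ones included, carried the transgene hhIs251 (strain PP3189), which drives a channelrhodopsin variant, ChR2(C128S;H134R)-FLAG, from the body wall muscle promoter of myo-3 and ends in the unc-54 3' UTR, together with a Cbr-unc-119(+) rescue marker. The treated worms were fed E. coli OP50 with 0.1 mM ATR from the L1 stage at 18 °C and, as young adults, received 5 s pulses of 455 nm light separated by 20 min of darkness over 8 h. The dark minus ATR worms were the same strain on unsupplemented food without light. Whole worms were sampled, and worms that had ruptured at the vulva were washed away before poly(A) RNA was sequenced.

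Channelrhodopsin is a cation channel that opens in blue light once retinal is bound, and in body wall muscle it depolarises the cell and makes it contract. The body wall muscle sarcomere of the worm is attached to the hypodermis and cuticle through dense bodies and M-lines, so that contraction is passed to the body surface. The myosin heavy chains MYO-3, in the centre, and UNC-54, along the arms, build its thick filaments around a core of paramyosin. Young adult hermaphrodites also devote a large share of their transcripts to oocytes, to yolk made in the intestine and to residual sperm products.

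The defining muscle transcripts were abundant in all 8 libraries, the summed level of the 6 thick filament genes being 3649 to 4031 CPM (reads per 1000000 library reads after composition scaling) in dark minus ATR and 4592 to 4842 CPM in light plus ATR. Library totals were 21266995 to 25416052 estimated counts in light plus ATR and 19264315 to 28704266 in dark minus ATR (two-sided exact permutation test, p = 0.600, where 0.0286 is the smallest value that 4 against 4 libraries allow). Spike-in RNA took 0.721 to 0.860% and 0.783 to 0.953% of counts (exact permutation p = 0.571). The 50 most abundant genes of each library held 15.1 to 15.6% of counts in light plus ATR and 16.6 to 17.1% in dark minus ATR (exact permutation p = 0.0286), without overlap.

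Of 15044 genes tested with edgeR's quasi-likelihood test, 3068 were higher and 2478 lower in light plus ATR at a Benjamini-Hochberg adjusted p below 0.05, which is 20.4% and 16.5% of the genes tested and 36.9% together. Rises were the larger changes: their median was 0.74 on the log2 scale, against -0.21 for the falls, and 748 genes rose but only 125 fell by at least 1 log2 unit. The median over all genes tested was 0.01. In a principal component analysis of log2 CPM over the 16 libraries the light plus ATR libraries stood apart on the first component, which held 28.2% of the variance, at -47.7 to -28.5 against -5.04 to 25.9 for the other 12. Rises lay mostly among genes of low to middle level and falls among abundant ones, since with genes put into 5 equal bins by mean level, 6.68% of the most abundant bin were called higher and 36.6% lower. In the bin next to the lowest these shares were 34% and 5.38%.

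**Figure D1:**
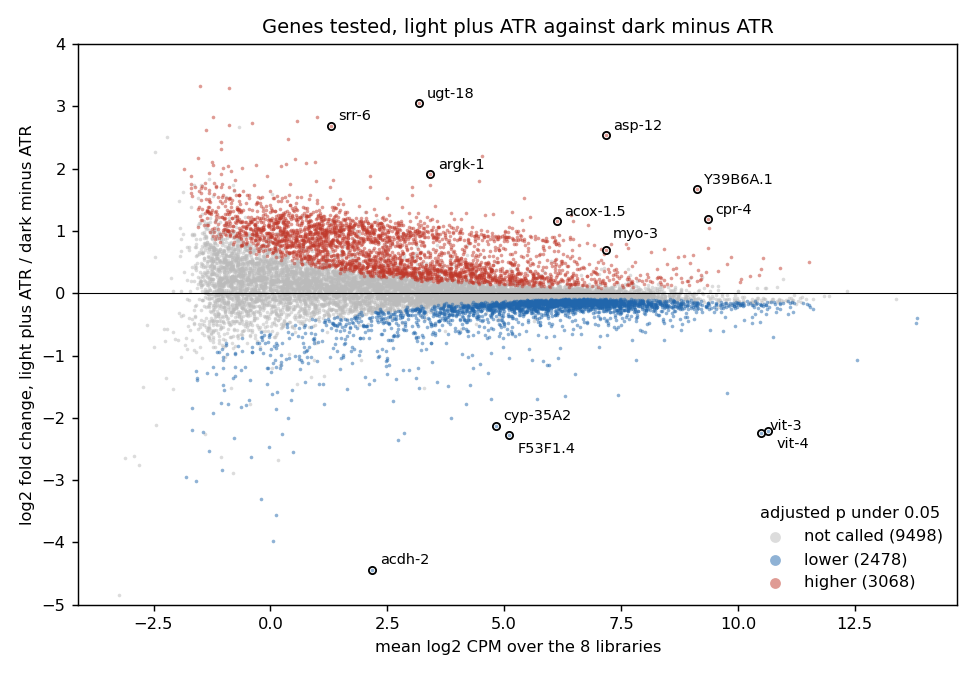
Log2 fold change (light plus ATR over dark minus ATR) against the mean log2 CPM over the 8 libraries for each gene tested, with 12 genes beyond the plotted range left out. Red points are the 3068 genes called higher, blue points the 2478 called lower and grey points those that did not pass; acdh-2, vit-3 and vit-4 stand far below the main body and asp-12 and ugt-18 far above it.

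Either factor alone gave few calls against the same dark minus ATR libraries. Light without ATR gave 0 genes by edgeR (0% of those tested), although 2012 had an unadjusted p below 0.05 and DESeq2 called 177. ATR in the dark gave 10 genes (0.0665%), 5 in each direction. They included cyp-35A2 (log2 difference -0.78) and cyp-35A3 (-1.51), cytochrome P450 genes that fell further with light added, to -2.13 and -3.98, and cyp-14A4, which was 3.07 higher with ATR alone and 2.01 higher in the full contrast. The interaction term, which asks whether light plus ATR departs from the sum of the single factors on the log2 scale, passed for 787 genes (5.23%), 388 above the sum (2.58%) and 399 below it (2.65%). Single libraries moved the small counts: light alone gave 9 genes without dark minus ATR replicate 1 and 3 without light minus ATR replicate 2, and ATR alone gave 5 without dark minus ATR replicate 2 and 6 without dark minus ATR replicate 4 or dark plus ATR replicate 3. These differences all use the dark minus ATR libraries, so their values are set side by side below without a test of their likeness.

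The large falls and the large rises differed in what the single-factor libraries showed. Of the 125 genes that fell by at least 1 log2 unit, 99 (79.2%) had all 4 light plus ATR libraries below all 12 others, with a median of -1.34 in the full contrast, -0.13 for light alone and -0.10 for ATR alone. Of the 748 that rose by at least 1 unit, 257 (34.4%) lay above all 12 others, and their medians were 1.16, 0.59 and 0.29. Over all genes tested, 2052 (13.6%) lay outside all 12 others in either direction. Both sets were chosen by their difference from the dark minus ATR libraries, which the single-factor values also use. Genes called higher also lay mostly at lower levels than genes called lower. The part of this choice and of level in these values was not tested.

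Among the 12 genes with the largest rise (protein-coding, mean log2 CPM of at least 1, no overlap of the 8 libraries), ugt-18, a UDP-glucuronosyltransferase (chromosome V, 12820260 to 12822778 in WBcel235), had 22.9, 28.2, 26.5 and 26.8 CPM in the light plus ATR replicates and 3.93, 3.66, 2.05 and 2.99 CPM in dark minus ATR. The groups were far apart, an 8.27-fold rise (log2 3.05 ± 0.27 SE, adjusted p = 2.56e-06). asp-12, an aspartic protease (chromosome V, 8269210 to 8272056), rose 5.82-fold, from 67.0, 67.6, 44.4 and 63.3 CPM to 302, 373, 371 and 364 CPM (log2 2.54 ± 0.15, adjusted p = 7.17e-08). In the single-factor libraries asp-12 was at 33.1 to 54.3 CPM with light alone and 40.8 to 49.4 CPM with ATR alone, within or below the untreated range of values.

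argk-1, an arginine kinase of the phosphagen system that buffers ATP, was at 20.3, 20.2, 17.98 and 24.8 CPM against 5.33, 4.68, 5.64 and 6.32 CPM, 3.77-fold higher (log2 1.91 ± 0.13, adjusted p = 2.18e-09). ech-9, an enoyl-CoA hydratase, rose by 2.20 ± 0.21 log2 units (adjusted p = 4.92e-06), with 39.97, 53.7, 53.1 and 55.0 CPM against 11.9, 9.14, 8.44 and 13.9 CPM, but its exons overlap those of another annotated gene. Y39B6A.1 was the most abundant of the 12, at 1037, 1173, 951 and 856 CPM against 332, 316, 395 and 222 CPM (log2 1.67 ± 0.20, adjusted p = 5.52e-05).

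The remaining 7 of the 12 were the chemoreceptor-class gene srr-6 (log2 2.69), B0024.4 (1.89), math-38 (1.82), the F-box gene fbxa-24 (1.79), the acyltransferase-like oac-14 (1.74), the C-type lectin clec-70 (1.71) and the cytochrome P450 cyp-13A5 (1.71). In 3 of them, srr-6, math-38 and cyp-13A5, the treated libraries overlapped those of a single factor. clec-70 was lower in both single-factor conditions (-0.49 with light and -0.67 with ATR), whereas srr-6 (1.31 and 0.53) and cyp-13A5 (0.78 and 0.41) had intermediate values, none of which passed the test.

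**Figure D2:**
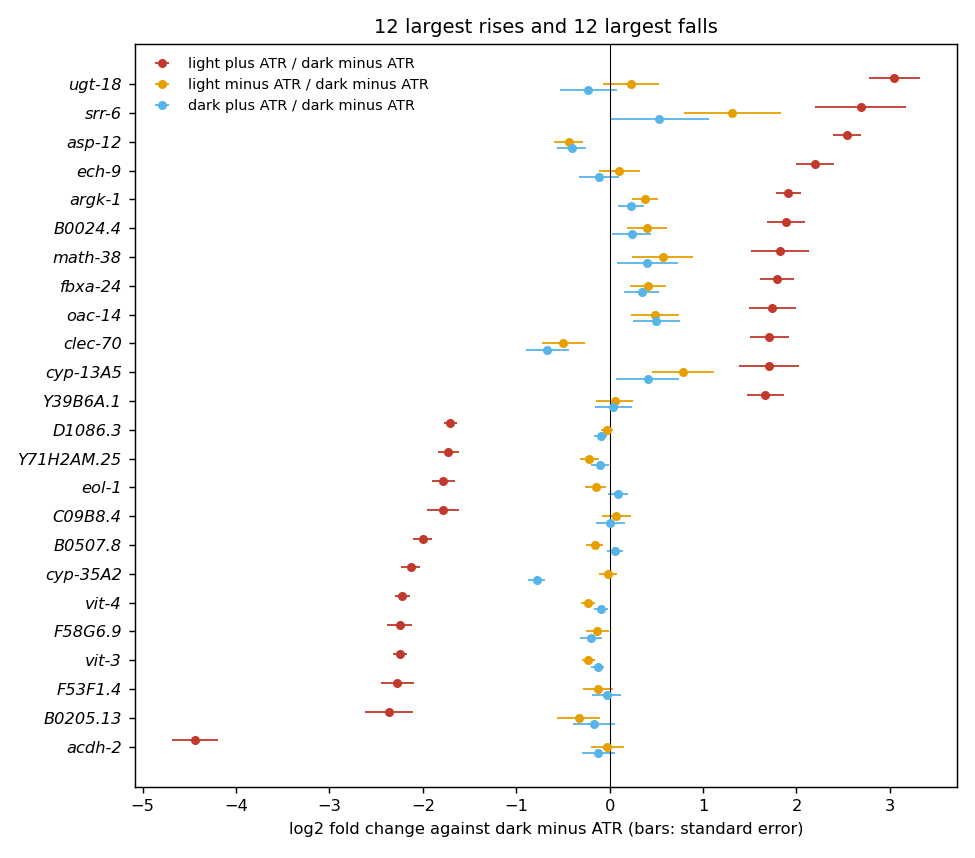
Log2 fold changes against the dark minus ATR libraries for the 12 largest rises and 12 largest falls, with bars of 1 standard error from the fit. Red points are light plus ATR, orange points light without ATR and blue points ATR in the dark; for acdh-2 the red point is at -4.44 while the other points are at -0.03 and -0.12, and for srr-6 the orange point is at 1.31.

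Among the 12 largest falls by the same rule, the deepest was that of acdh-2, an acyl-CoA dehydrogenase of fatty acid oxidation (chromosome II, 5544778 to 5547492, exons overlapping ins-13). It stood at 18.4, 19.1, 24.6 and 24.97 CPM in dark minus ATR and at 0.574, 0.671, 2.002 and 0.721 CPM in light plus ATR, 21.7-fold lower (log2 -4.44 ± 0.25, adjusted p = 1.12e-08). The highest treated library was replicate 3, still far below the lowest untreated one, and the single-factor libraries stayed at 20.9 to 22.7 CPM and 17.5 to 22.2 CPM.

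The other 11 of the 12 largest falls had log2 values of -2.36 to -1.70. They were B0205.13, F53F1.4, F58G6.9, vit-3, vit-4, cyp-35A2, B0507.8, eol-1, C09B8.4, Y71H2AM.25 and D1086.3. F53F1.4 went from 79.7, 84.4, 71.5 and 69.8 CPM to 12.3, 11.95, 16.7 and 21.7 CPM (log2 -2.27 ± 0.18, adjusted p = 1.04e-06). eol-1, whose product is related to a mammalian RNA decapping exonuclease, went from 27.7, 31.8, 33.3 and 41.5 CPM to 10.7, 10.7, 8.201 and 9.61 CPM (log2 -1.78 ± 0.12, adjusted p = 1.63e-08). In all 12 genes the 4 treated libraries were below all 12 others.

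Sarcomere transcripts were higher in light plus ATR across every part of the contractile lattice. All 6 thick filament genes passed the test, as did all 4 giant titin-like genes, 17 of 23 attachment genes and 16 of 25 thin filament genes, against 20.4% of all genes tested. Their medians were 0.29, 0.48, 0.27 and 0.24 on the log2 scale, with 0.01 over all genes.

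myo-3 (chromosome V, 12226817 to 12234343), whose promoter also drives the transgene, rose most among the thick filament genes. It had 193, 191, 169 and 183 CPM in light plus ATR and 124, 104.1, 122.95 and 105 CPM in dark minus ATR, a 1.61-fold difference without overlap (log2 0.69 ± 0.07, adjusted p = 2.37e-07). unc-54, the major body wall muscle myosin heavy chain, was at 1494, 1544, 1506 and 1602 CPM against 1251, 1192, 1391 and 1186 CPM (log2 0.29 ± 0.07, adjusted p = 0.00343). The unc-54 groups did not overlap, though by a small margin in replicate 3 of the untreated worms, and unc-54 could also take reads of the transgene's 3' UTR, which was not tested. unc-15, the paramyosin of the filament core, rose by 0.47 ± 0.08 (adjusted p = 1.93e-04), and the myosin light chain gene mlc-1 by 0.29 ± 0.05 (adjusted p = 2.37e-04).

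In the thin filament the best separated genes rose by similar amounts. unc-60, which encodes ADF/cofilin proteins that sever actin filaments (chromosome V, 1475086 to 1479576), was at 147, 162, 155 and 169 CPM against 89.3, 92.4, 88.4 and 97.99 CPM (log2 0.78 ± 0.05, adjusted p = 6.12e-11). tni-1, a troponin I of body wall muscle (chromosome X, 11375887 to 11377470), was at 87.7, 88.8, 89.1 and 97.8 CPM against 52.7, 52.2, 50.02 and 54.9 CPM (log2 0.79 ± 0.05, adjusted p = 1.77e-10). Both were above all 12 other libraries, at 50.1 to 56.4 and 49.8 to 56.9 CPM for tni-1 with light or ATR alone. The calponin-related cpn-3 (log2 0.58) and unc-87 (0.37) rose as well. The exception was act-2, an actin gene whose sequence is nearly shared with other actins, with a log2 change of -0.31 ± 0.06 (adjusted p = 6.45e-04). Among the sarcomere genes named here, mlc-1, unc-60, unc-87, ketn-1, unc-22, pat-2, cpna-1, unc-82 and alp-1 share exon positions with another annotated gene, so that part of their counts is uncertain.

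Titin-like and attachment genes moved by similar amounts. unc-89, the obscurin homolog of the M-line, was at 205, 215, 201 and 202 CPM against 134, 129, 147 and 133 CPM (log2 0.60 ± 0.06, adjusted p = 5.74e-07), the titin homolog ttn-1 rose by 0.53 ± 0.07 and the I-band protein gene ketn-1 by 0.43 ± 0.08. unc-22, twitchin, rose by only 0.28 ± 0.08 (adjusted p = 0.0144), its untreated range of 140.2 to 181 CPM touched the treated range of 178 to 198 CPM, and without dark minus ATR replicate 4 its adjusted p was 0.0593. Among attachment genes, pat-2, the alpha integrin of dense bodies and M-lines, was at 109, 114, 102.95 and 103.9 CPM against 71.7, 63.4, 73.8 and 75.1 CPM (log2 0.59 ± 0.05, adjusted p = 1.59e-08), with cpna-1 (0.63), unc-82 (0.58) and the PDZ-LIM gene alp-1 (0.51) close to it.

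**Figure D3:**
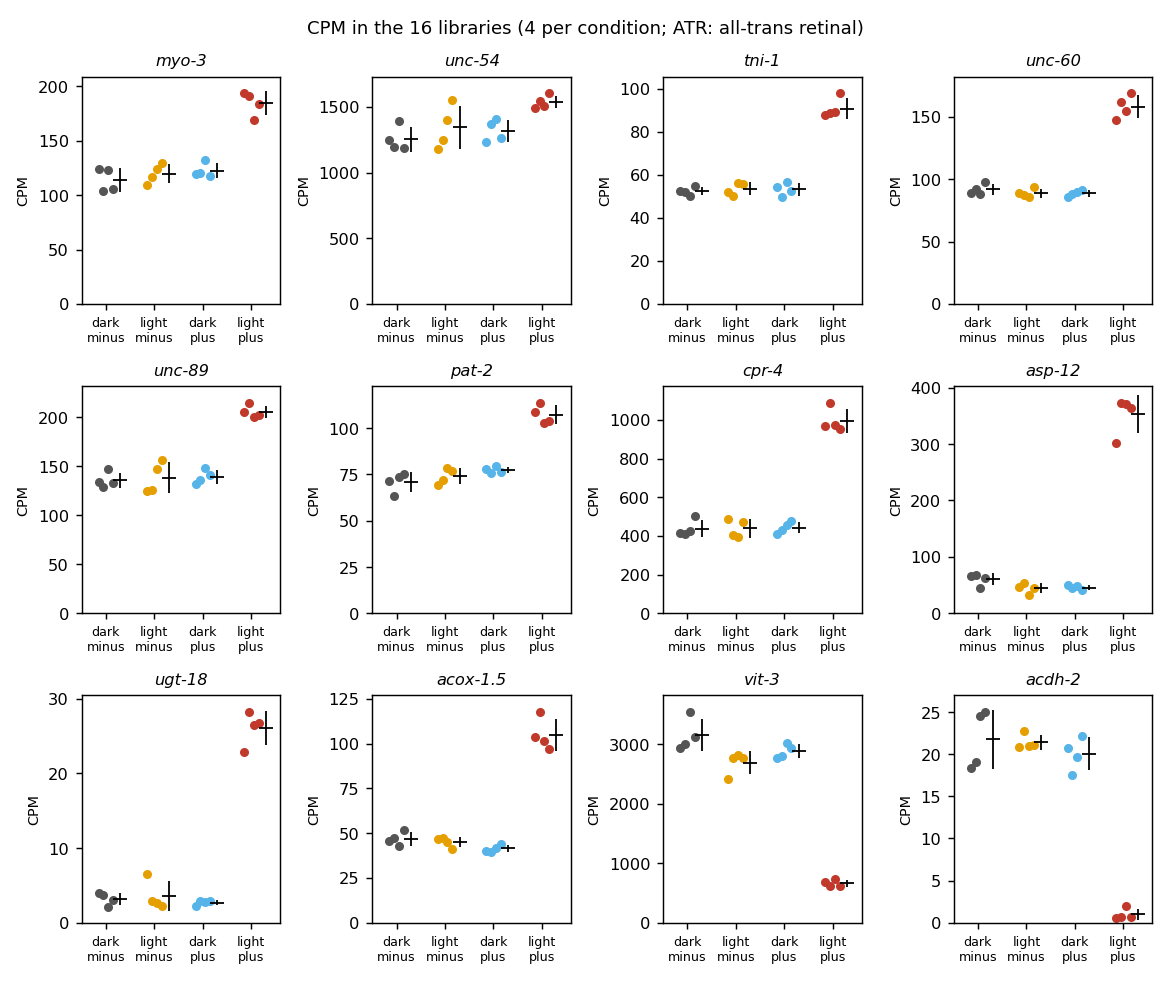
CPM of 12 genes in each of the 16 libraries, 4 points per condition, with the mean and standard deviation as a black bar beside them and axes from 0. For myo-3, tni-1, unc-60, unc-89, pat-2, cpr-4, asp-12, ugt-18 and acox-1.5 the light plus ATR points are above those of the other 3 conditions, for vit-3 and acdh-2 they are below them, and for unc-54 they meet one light minus ATR library.

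Single-factor values were small for these lists: the medians with light alone were 0.08, 0.07, 0.06 and 0.01 in the order above, and those with ATR alone were 0.05, 0.10, 0.07 and 0.00. The interaction passed above the sum of the single factors for 1 thick filament gene, 1 giant gene, 9 thin filament genes and 7 attachment genes, and below it for 1 attachment gene. With a required change of 1.2-fold, 2 thick filament, 3 giant, 9 attachment and 6 thin filament genes passed. In whole worms a larger share of muscle relative to other tissue and more RNA of these genes per muscle cell cannot be told apart.

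Pharyngeal muscle genes, which the transgene's promoter does not cover, rose too. 7 of 8 passed (87.5%, against 20.4% of all genes, median 0.39), 3 of them shared with the thin filament list. Their summed level was 599 to 612 CPM against 412 to 515 CPM. tni-4, the pharyngeal troponin I, was at 69.8 to 83.2 CPM against 56.4 to 63.5 CPM (log2 0.39 ± 0.06, adjusted p = 1.76e-05), and pha-4, the FoxA factor of the pharynx, rose by 0.52 ± 0.10 (adjusted p = 4.39e-04). Of 9 intestinal markers 2 rose and of 10 hypodermal markers 2, shares of 22.2% and 20% near the 20.4% of all genes, with summed levels of 1596 to 1737 against 1513 to 1622 CPM and 300.3 to 319 against 271 to 334 CPM. The intestinal esterase gene ges-1 fell (log2 -0.33 ± 0.05, adjusted p = 6.53e-05), whereas vha-6 (0.22) and erm-1 (0.15) rose, as did the hypodermal ajm-1 (0.26) and wrt-10 (1.14). None of the 3 coelomocyte markers passed. The part of tissue proportions in these rises was not tested.

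Genes of muscle excitation and of synapses shifted in the same direction by less. 7 of 17 calcium channel and store genes rose and 1 fell (41.2% and 5.88%, over all genes 20.4% and 16.5%, median 0.15). jph-1, a junctophilin that ties the plasma membrane to calcium stores, was at 44.99, 40.8, 44.1 and 38.3 CPM against 33.3, 27.3, 34.5 and 27.3 CPM (log2 0.46 ± 0.08, adjusted p = 3.59e-04). The calsequestrin gene csq-1 rose by 0.38 ± 0.06 and the IP3 receptor gene itr-1 by 0.28 ± 0.04 (adjusted p = 1.84e-04 and 1.17e-05), while the ryanodine receptor gene unc-68 fell (log2 -0.24 ± 0.06, adjusted p = 0.00362).

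At the neuromuscular junction 5 of 14 genes rose (35.7%, against 20.4% of all genes). They were unc-49, the GABA receptor of body wall muscle (log2 0.37), lev-10, which clusters acetylcholine receptors (0.24), madd-4 (0.38), ace-1 (0.30) and ric-3 (0.28). unc-50, which acts in receptor trafficking, fell (-0.19). Without dark minus ATR replicate 4 the neuromuscular junction count of rises was 3, and at a required change of 1.2-fold it was 0.

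Neuronal markers showed 9 rises and 0 falls among 21 genes (median 0.31), with a summed level of 603 to 619 CPM against 529 to 547 CPM. Neuropeptide and insulin-like peptide genes had 55 rises and 2 falls among 113 (median 0.32). Rises were 42.9% and 48.7% of these lists, against 20.4% of all genes. In the level bin next to the lowest, where the nlp and ins median levels lay, 34% of all genes rose. In the middle bin, where the flp median level lay, 27.7% did. egl-21, the carboxypeptidase that processes neuropeptides, was at 99.0, 103.6, 96.9 and 99.5 CPM against 81.9, 80.2, 79.9 and 77.9 CPM (log2 0.32 ± 0.03, adjusted p = 5.11e-07). flp-18, an FMRFamide-related peptide gene, was at 34.8, 35.9, 34.3 and 35.4 CPM against 21.3, 24.2, 24.4 and 24.6 CPM (log2 0.57 ± 0.06, adjusted p = 1.69e-07). These groups were apart by little in absolute terms but tightly replicated, and flp-18 was slightly lower under either factor alone (-0.12 and -0.06). The neuropeptide precursors nlp-11 (0.64) and nlp-14 (0.56) and the processing chaperone gene sbt-1 (0.38) rose alongside. Once the trend of fold change with expression level was removed, an alternative chosen after the data were seen, 30 neuropeptide and insulin-like peptide genes rose (median 0.15) and 7 neuronal markers (median 0.12).

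**Figure D4:**
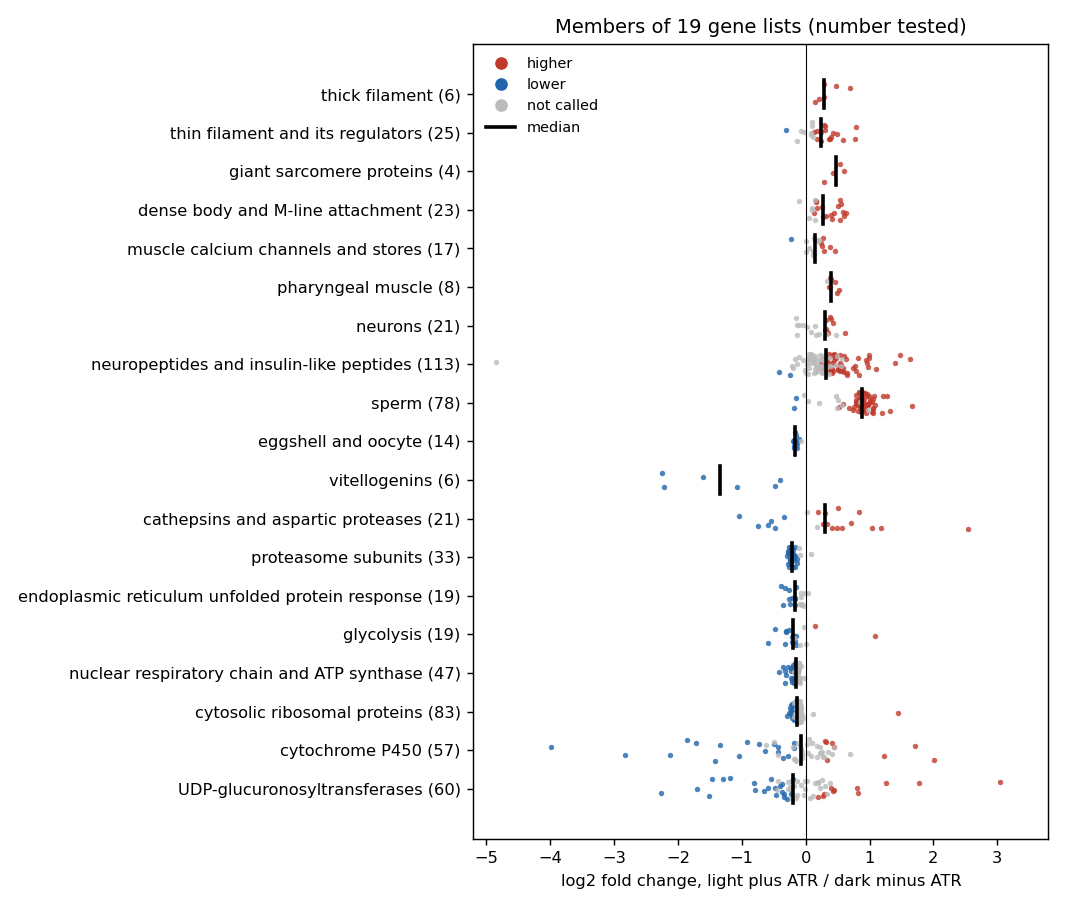
Log2 fold change (light plus ATR over dark minus ATR) of each tested member of 19 gene lists, 1 point per gene, coloured by whether it passed at an adjusted p below 0.05, with the list median as a black bar. Sarcomere and sperm points lie to the right of 0, vitellogenin and proteasome points to the left, and the P450 and UDP-glucuronosyltransferase points spread to both sides.

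Chaperone and protein turnover genes were mostly slightly lower. In the myosin chaperone and ubiquitin network, 8 of 14 fell (57.1%, against 16.5% of all genes tested, median -0.17). Among them were hsp-110 (-0.31 ± 0.05), hsp-90 (-0.26), hsp-1 (-0.22), sti-1 (-0.23) and sgt-1 (-0.23). unc-45, the myosin-directed chaperone, was at 77.7, 75.9, 76.3 and 72.0 CPM in light plus ATR and 81.1, 74.0, 74.3 and 77.8 CPM in dark minus ATR, with overlapping groups (log2 -0.03 ± 0.04, adjusted p = 0.648). The only rise was nhl-1, a TRIM ubiquitin ligase gene, at 39.9, 37.7, 33.4 and 30.8 CPM against 28.7, 26.4, 27.1 and 25.3 CPM (log2 0.40 ± 0.07, adjusted p = 1.33e-04, exons overlapping another gene).

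Falls were also seen in the stress response lists. The cytosolic heat shock list is not separate from the network above, since hsp-110 is counted in both. 9 of 12 cytosolic heat shock genes fell (75%, against 16.5% of all genes, median -0.18), including the J-domain genes dnj-13 (-0.26) and dnj-19 (-0.18). Of 19 endoplasmic reticulum genes 11 fell (57.9%, median -0.16). hsp-4, the BiP chaperone that marks endoplasmic reticulum stress, was at 351, 343, 336 and 352 CPM against 457, 461, 435 and 419 CPM (log2 -0.36 ± 0.04, adjusted p = 1.79e-06), and dnj-27 (-0.39) and pdi-6 (-0.26) were lower. Of 11 mitochondrial genes 3 fell, the chaperonin hsp-60 (-0.43 ± 0.06, adjusted p = 2.53e-05) and tomm-20 (-0.26) among them, and the transcription factor dve-1 rose (0.39). hsp-6, the usual marker of that response, stayed at 575 to 640.2 CPM against 576 to 676 CPM (log2 -0.02 ± 0.05, adjusted p = 0.813). In the most abundant of the 5 level bins, which held hsp-110, dnj-13, hsp-4 and hsp-60, 36.6% of all genes fell. The mitochondrial share of falls, 27.3%, was below that.

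Small heat shock genes were mixed. hsp-43 (0.26), hsp-12.3 (0.72), hsp-12.2 (0.21) and hsp-17 (0.17) rose, 4 of 11 (36.4%, against 20.4% of all genes). hsp-16.11, which has a near-identical copy, fell from 6.63, 6.83, 9.48 and 9.87 CPM to 5.97, 3.27, 2.93 and 3.30 CPM (log2 -1.09 ± 0.24, adjusted p = 0.00265). The small heat shock proteins that rose numbered 2 without dark minus ATR replicate 1, dark minus ATR replicate 4 or light plus ATR replicate 4. The classical heat stress genes hsp-16.2 and hsp-16.41 had 20 and 12 reads in all over the 4 light plus ATR libraries and 9 and 5 over the 4 dark minus ATR libraries, too few to be tested.

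Proteasome subunit genes fell in 30 of 33 cases (90.9%, against 16.5% of all genes, median -0.21). The strongest by p were pas-1 (-0.27), rpn-11 (-0.25) and rpn-7 (-0.24), all in the most abundant level bin, where 36.6% of all genes fell. rpn-11, the deubiquitinase of the regulatory particle, was at 233, 227, 219 and 223 CPM against 277, 284, 247 and 266 CPM (adjusted p = 5.74e-04), apart by a narrow margin. Autophagy genes had 5 rises and 2 falls of 30 (median -0.04, which was 0.12 with spike-in scaling), shares of 16.7% and 6.67% that are below the 20.4% and 16.5% of all genes. sqst-1, the p62 receptor that carries ubiquitylated cargo to autophagosomes, was at 97.4, 91.8, 91.7 and 92.4 CPM against 66.2, 66.9, 74.3 and 60.3 CPM (log2 0.48 ± 0.06, adjusted p = 1.42e-06). hlh-30, the TFEB homolog that activates autophagy and lysosome genes (0.30, adjusted p = 0.00428), and the lipid transfer gene atg-2 (0.28) also rose, with lgg-1 (0.18) and allo-1 (0.11).

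The small falls in these lists depended on how libraries were scaled. With spike-in totals as library sizes the median of all genes was 0.16, and the numbers lower became 0 proteasome subunits, 0 cytosolic heat shock response genes, 1 endoplasmic reticulum unfolded protein response gene and 0 of the myosin chaperone and ubiquitin network. With the level trend removed they were 13, 4, 7 and 3. These 4 list medians stayed below 0 under all 5 scalings, while that of the mitochondrial unfolded protein response was at 0.04 with spike-in scaling.

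Lysosomal proteases changed in both directions. 13 of 21 cathepsins and aspartic proteases rose and 6 fell (61.9% and 28.6%, backgrounds 20.4% and 16.5%), and the other 2 did not pass. cpr-4, a secreted cathepsin B, was at 967, 1088, 972 and 954 CPM against 413, 408, 424 and 503 CPM (log2 1.19 ± 0.08, adjusted p = 2.68e-09), 2.28-fold higher, and cpr-1 at 903, 1001, 939 and 957 CPM against 435, 456, 497 and 460.1 CPM (1.04 ± 0.07, adjusted p = 3.59e-10). In contrast cpr-6 fell to 552, 547, 580.4 and 543 CPM from 777, 813, 851 and 893 CPM (-0.58 ± 0.04, adjusted p = 2.76e-09) and the cathepsin Z gene cpz-1 fell as well (-0.75 ± 0.06, adjusted p = 8.06e-09). All of these were outside the range of the 12 other libraries. The single-factor values of cpr-4 were 0.01 and 0.02.

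Defence genes likewise moved in both directions. 6 of 12 lysozyme genes rose (50%, background 20.4%) and lys-1 fell (log2 -0.31). lys-4 was at 329, 336, 381 and 383 CPM against 211, 232, 238 and 223 CPM (log2 0.66 ± 0.06, adjusted p = 1.48e-08), and the scarce lys-3 at 4.67, 3.36, 2.39 and 4.29 CPM against 0.361, 0.591, 0.899 and 0.351 CPM (log2 2.77 ± 0.45, adjusted p = 2.43e-04), with ilys-4 at 0.53. Of 19 saposin-like genes, whose products permeabilise membranes, 6 rose and 4 fell (31.6% and 21.1%, backgrounds 20.4% and 16.5%). Among them spp-2 (log2 1.001 ± 0.09) and spp-18 (0.72) went up and spp-17 (-0.61) down. C-type lectins, carbohydrate-binding proteins that often respond to infection, gave 32 rises and 24 falls of 116, shares of 27.6% and 20.7%. Over all genes these shares were 20.4% and 16.5%. In the level bin next to the lowest, where the clec median level lay, 34% of all genes rose and 5.38% fell. The C-type lectin counts were 37 and 12 with spike-in scaling and 24 and 26 with the level trend removed. Among C-type lectins, clec-53 was at 10.7 to 12.4 CPM against 3.43 to 5.14 CPM (log2 1.38 ± 0.12), clec-265 at 5.10 to 7.05 against 12.2 to 14.9 (-1.203 ± 0.12) and clec-41 at -0.50.

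Antimicrobial peptides of the epidermis, which are induced by wounding and fungal infection, were scarce and variable. 6 of 16 rose and 2 fell (37.5% and 12.5%, backgrounds 20.4% and 16.5%). nlp-29, the standard reporter gene of epidermal damage, was at 11.4, 9.89, 17.3 and 18.8 CPM against 9.61, 6.61, 10.2 and 13.9 CPM and did not pass (log2 0.50 ± 0.25, adjusted p = 0.145), while nlp-30 (1.003 ± 0.26), nlp-34 (1.81 ± 0.52) and cnc-4 (1.15 ± 0.32) rose and nlp-24 fell (-1.14 ± 0.18). With the replicate number added to the edgeR fit as a block, nlp-29 passed as higher (adjusted p = 0.00146). The epidermal antimicrobial peptides count of rises was 3 without dark minus ATR replicate 2, light plus ATR replicate 3 or light plus ATR replicate 4. Of 22 pals genes, many of which respond to intracellular pathogens, 6 fell and 2 rose (27.3% and 9.09%, backgrounds 16.5% and 20.4%). Among them pals-38 was at 1.67 to 1.91 CPM against 4.33 to 5.99 CPM (-1.54 ± 0.13, adjusted p = 2.02e-08), pals-33 at -0.99 and pals-32 at 1.47. Among the 9 dod genes, downstream targets of the insulin pathway factor DAF-16, 5 fell (55.6%, background 16.5%), among them dod-24 (-0.56 ± 0.07), dod-17 (-0.72) and dod-19 (-0.28).

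Of 16 basement membrane genes, whose products lie between muscle and hypodermis, 4 rose and 4 fell (25% each, backgrounds 20.4% and 16.5%, median 0.09). With spike-in scaling 6 rose and 1 fell. The type IV collagen chain gene emb-9 (log2 0.25 ± 0.07, adjusted p = 0.0129), the SPARC homolog ost-1 (0.13), the fibulin fbl-1 (0.26) and mig-6 (0.29), which encodes papilin, were the rises. The nidogen nid-1 (log2 -0.48 ± 0.05, adjusted p = 1.47e-07), the hemicentin him-4 (-0.30) and the laminin chains lam-1 (-0.18) and epi-1 (-0.16) were the falls.

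Most cuticle collagens did not pass, with 7 rises and 20 falls of 133 (backgrounds 20.4% and 16.5%). col-95 rose from 511, 512, 514 and 509 CPM to 822, 860.2, 779 and 912 CPM (log2 0.72 ± 0.05, adjusted p = 9.46e-10), while col-8 (-0.53) and col-143 (-0.43), both overlapping other genes, fell. With spike-in scaling 11 and 8 cuticle collagens were higher and lower, so that falls no longer led, and with the level trend removed 3 and 12 were. The cuticle collagens that rose numbered 4 without light plus ATR replicate 2 and 12 without light plus ATR replicate 3. Of 23 oxidative defence genes 6 rose and 5 fell, 26.1% and 21.7%, near the 20.4% and 16.5% of all genes. The glutathione peroxidase gene gpx-3 was at 21.1 to 23.6 CPM against 12.2 to 15.03 CPM (log2 0.69 ± 0.07), and the metallothionein gene mtl-2 (-0.41) and gst-4 (-0.80) were lower. Of the osmotic genes, the water channel aqp-8 (0.51) and the trehalose synthase tps-1 (0.30) rose, and gpdh-1, which makes the osmolyte glycerol in salt stress, fell (-0.59 ± 0.15, adjusted p = 0.00416).

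The yolk protein genes, among the most abundant transcripts of these worms, fell together. All 6 vitellogenins were lower (median -1.34, against 16.5% of genes tested), and their share of all counts was 2.90 to 3.51% in light plus ATR and 4.59 to 5.77% in dark minus ATR (exact permutation p = 0.0286, the smallest possible). vit-3 (chromosome X, 3567355 to 3572549) stood at 690.4, 614, 736 and 615 CPM against 2939, 3000.0, 3536 and 3123 CPM, 4.74-fold lower (log2 -2.25 ± 0.07, adjusted p = 5.66e-15). Its neighbour vit-4 (chromosome X, 3558769 to 3563965) fell 4.65-fold (-2.22 ± 0.08, adjusted p = 9.44e-15), and reads of these near-identical genes can be split between them. The series of falls ran on through vit-1 (-1.61) and vit-5 (-1.07) to vit-6 (-0.48) and vit-2 (-0.40). With light or ATR alone the list medians were -0.17 and -0.09, and the interaction passed for 4 of the 6, below the sum.

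Oocyte and eggshell genes were lower in 13 of 14 cases (92.9%, background 16.5%), by small amounts (median -0.16, range -0.20 to -0.07). rme-2, the yolk receptor of oocytes, was at 1095, 1065, 1017 and 1012 CPM against 1209.6, 1175, 1210.0 and 1170.5 CPM (log2 -0.19 ± 0.04, adjusted p = 0.00174), with oma-2 (-0.20) and puf-5 (-0.18) alike. No eggshell and oocyte gene passed with spike-in scaling or with the level trend removed, and 7 did without dark minus ATR replicate 2. In the germline list 10 of 20 fell (50%, background 16.5%, median -0.13), spn-4 (-0.22) among them, and the synaptonemal complex gene syp-1 rose (0.24 ± 0.05, adjusted p = 5.79e-04). The germline falls numbered 6 without dark minus ATR replicate 1 or replicate 2, and with spike-in scaling none passed and the median was 0.02. Of 11 early embryonic genes, hlh-1, the MyoD homolog (0.56), and elt-1 (0.29) rose and pes-10 fell (-1.080), the elt-1 value losing its call without dark minus ATR replicate 4 (adjusted p = 0.0648). The early embryonic shares of 18.2% and 9.09% are below the 20.4% and 16.5% of all genes.

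Sperm genes rose as a body. 67 of 78 passed upward (85.9%, background 20.4%) and 2 downward, spe-39 (-0.18) and spe-48 (-0.14), with a median of 0.88. Their summed level was 1865 to 2836 CPM in light plus ATR and 1201 to 1535 CPM in dark minus ATR, and their share of counts 0.195 to 0.294% against 0.118 to 0.149% (exact permutation p = 0.0286). spe-4, a presenilin needed in sperm formation, was at 4.33, 4.21, 4.43 and 5.54 CPM against 2.08, 1.88, 1.55 and 2.14 CPM (log2 1.27 ± 0.18, adjusted p = 1.72e-05). nspd-10, of a family of near-identical nematode-specific sperm peptides, was at 8.002, 7.88, 8.28 and 11.8 CPM against 4.42, 3.87, 4.34 and 4.60 CPM (1.06 ± 0.14, adjusted p = 8.69e-06), and spe-46 (1.04) and ssp-31 (0.95) rose as well.

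Sperm genes also had raised medians under the single factors. The sperm median was 0.51 with light alone and 0.21 with ATR alone, although none of the members passed in either comparison, and the summed level of 1481 to 2079 CPM with light overlapped both groups while that of 1279 to 1753 CPM with ATR overlapped dark minus ATR. The libraries of 1 condition differed widely, light plus ATR replicate 4 having the highest sum and replicate 1 the lowest, and the interaction passed for 0 members. Because ruptured worms were removed, the worms compared may differ in gonad content, and its part in these values was not tested.

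**Figure D5:**
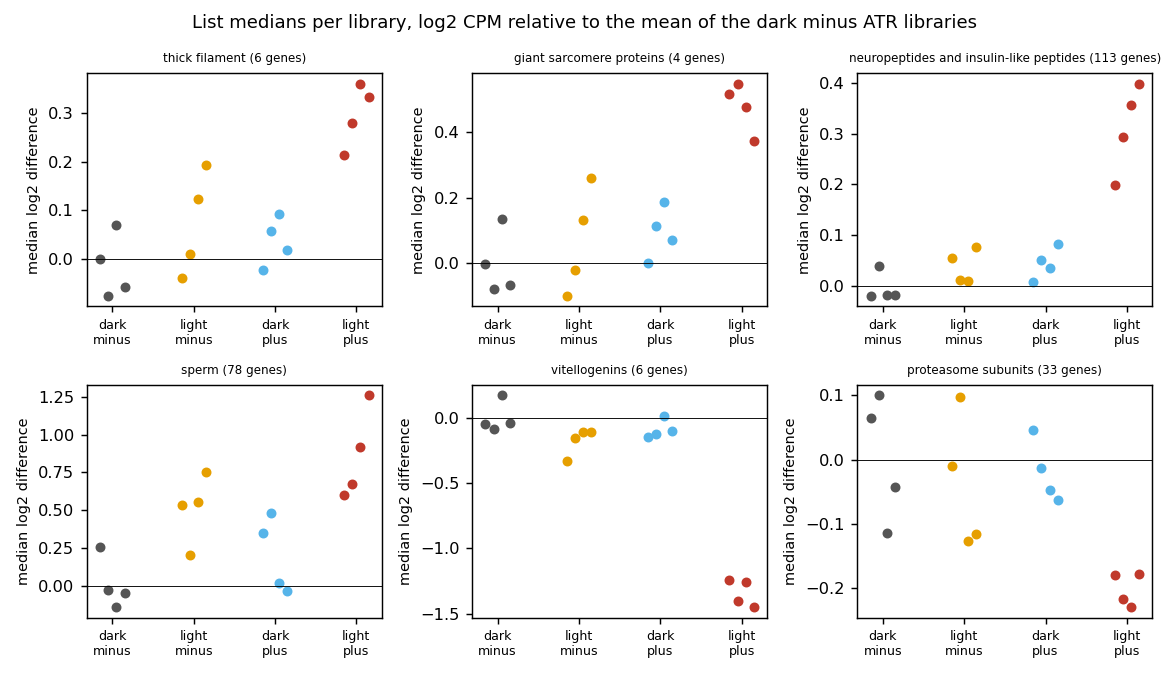
Median over list members of the log2 CPM difference from the mean of the dark minus ATR libraries, 1 point for each of the 16 libraries, in 6 lists with separate axes. Light plus ATR points lie apart from the other 12 in 5 of the 6 lists, above them for thick filament, giant sarcomere and neuropeptide genes and below them for vitellogenins and proteasome subunits, whereas sperm points of light minus ATR reach into their range.

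Fat metabolism changed gene by gene. Of 20 desaturase and elongase genes, 6 rose and 6 fell (30% each, backgrounds 20.4% and 16.5%). Of the delta-9 desaturases, fat-7, at 53.1, 48.8, 52.8 and 60.7 CPM against 90.1, 108, 95.4 and 103.05 CPM (log2 -0.88 ± 0.07, adjusted p = 7.17e-08), and fat-5 (-0.998 ± 0.10) fell, while fat-6 (0.18) rose. elo-5 (-0.38) and let-767 (-0.35) fell too, and the polyunsaturated fatty acid desaturases fat-2 (0.36), fat-3 (0.30) and fat-4 (0.26) rose. Log2 values in the list ran from -0.998 to 1.25. In fatty acid oxidation 9 of 47 rose and 13 fell (19.1% and 27.7%, backgrounds 20.4% and 16.5%). With spike-in scaling these counts turned to 12 and 7, and the median from -0.06 to 0.09. acox-1.5, a peroxisomal acyl-CoA oxidase, was at 103.9, 118, 102 and 96.9 CPM against 45.7, 47.3, 42.6 and 51.9 CPM (log2 1.16 ± 0.06, adjusted p = 6.99e-11), and ech-6 (-0.62) and acdh-9 (-0.68) fell beside acdh-2. Among lipid and retinol binding proteins, 4 rose and 7 of 17 fell (23.5% and 41.2%, backgrounds 20.4% and 16.5%), with far-6, of the fatty acid and retinol binding family, at 66.2, 68.4, 71.3 and 71.5 CPM against 106, 117, 111 and 103.01 CPM (log2 -0.66 ± 0.05, adjusted p = 1.27e-09) and lbp-2 at -0.69. With spike-in scaling the binding protein counts were 4 higher and 2 lower. The rises were those of lbp-1 (0.26), lbp-7 (0.66), far-7 (0.56) and far-8 (0.15), and the value of far-6 with ATR alone was 0.03.

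Genes of xenobiotic metabolism changed in both directions, and which direction was the more frequent depended on the scaling. Cytochrome P450 genes had 18 falls and 8 rises of 57, UDP-glucuronosyltransferases 22 and 11 of 60, glutathione S-transferases 14 and 5 of 42 and short-chain dehydrogenases 9 and 4 of 29. Falls were 31.6%, 36.7%, 33.3% and 31% of these lists, against 16.5% of all genes. Rises were 14%, 18.3%, 11.9% and 13.8%, against 20.4%. cyp-35A2, of an intestinal family inducible by foreign compounds, was at 13.6, 10.9, 17.1 and 12.5 CPM against 55.1, 61.7, 62.7 and 58.5 CPM (log2 -2.13 ± 0.10, adjusted p = 2.51e-10). With ATR alone its libraries were already lower, at 32.01, 35.4, 32.9 and 38.1 CPM, whereas with light alone they were at 56.4, 62.7, 62.5 and 53.3 CPM. With spike-in scaling the falls no longer outnumbered the rises: higher and lower genes numbered 12 and 12 for P450, 14 and 11 for UDP-glucuronosyltransferases, 10 and 8 for glutathione S-transferases and 6 and 4 for short-chain dehydrogenases. The P450 list median of -0.07 and the short-chain dehydrogenase median of -0.08 turned to 0.08 and 0.07 with spike-in scaling, as did that of glutathione S-transferases, from -0.13 to 0.02, and that of UDP-glucuronosyltransferases moved from -0.19 to -0.03. cyp-35A3 (-3.98 ± 0.30) and cyp-35C1 (-1.42 ± 0.10) fell as well.

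In the conjugating families the largest falls named by p were ugt-62, at 25.9, 24.04, 32.6 and 33.7 CPM against 87.7, 95.1, 99.7 and 96.7 CPM (log2 -1.70 ± 0.08, adjusted p = 3.02e-10), ugt-19 (-1.52 ± 0.13) and ugt-22 (-1.299 ± 0.07). gst-10 fell from 37.6, 37.5, 36.7 and 45.9 CPM to 14.4, 16.07, 17.8 and 16.7 CPM (log2 -1.28 ± 0.08, adjusted p = 1.06e-10) and gst-13 likewise (-0.72), whereas gst-20 rose by 0.68 ± 0.06. Among short-chain dehydrogenases dhs-25 was at 40.8, 38.9, 52.1 and 46.2 CPM against 121.6, 147, 142 and 145 CPM (log2 -1.64 ± 0.08, adjusted p = 1.38e-10), with dhs-3, a lipid droplet protein of the intestine (-0.86), and dhs-26 (-1.54) below 0 too. Leaving out 1 library moved some of the smaller counts: cytochrome P450 rises numbered 5 without light plus ATR replicate 4, glutathione S-transferases rises 8 without dark minus ATR replicate 4, and short-chain dehydrogenases rises 2 without dark minus ATR replicate 1 or light plus ATR replicate 4.

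Several lists of energy and translation genes held more falls than rises, by small amounts. 13 of 19 glycolysis genes fell (median -0.20), led by the glyceraldehyde-3-phosphate dehydrogenases gpd-2, at 183, 174, 209 and 211 CPM against 286, 285, 303 and 299 CPM (log2 -0.59 ± 0.05, adjusted p = 3.39e-08), and gpd-3 (-0.48), which are nearly identical, and pgk-1 (-0.31). pfk-1.2 (1.09) and pyk-2 (0.15) rose. pck-1, the phosphoenolpyruvate carboxykinase of gluconeogenesis, fell 2.07-fold, from 100.2, 94.5, 102 and 112.4 CPM to 47.3, 39.6, 54.4 and 56.8 CPM (log2 -1.05 ± 0.08, adjusted p = 1.10e-07), and the malate dehydrogenases mdh-1 (-0.41) and mdh-2 (-0.38) were among 13 of 26 citric acid cycle genes that fell.

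Of 47 nuclear genes for the respiratory chain and ATP synthase, 31 fell and none rose (median -0.15), with cox-6C at 82.5, 86.7, 87.5 and 102.6 CPM against 115.5, 123.2, 112.3 and 129 CPM (log2 -0.42 ± 0.05, adjusted p = 6.42e-06), asg-2 at -0.35 and gas-1 at -0.30. The 12 mitochondrially encoded genes, poorly captured by poly(A) selection, varied between libraries (0.226 to 0.399% of counts against 0.229 to 0.312%, exact permutation p = 0.371), and nduo-5 alone passed (log2 0.21). Cytosolic ribosomal protein genes fell in 32 of 83 cases (median -0.14), ubq-2 (-0.24) and rla-2 (-0.25) among them, and the scarce rpl-42 rose (1.44 ± 0.30). Mitochondrial ribosomal protein genes fell in 14 of 71, translation factors in 19 of 46 and tRNA synthetases in 6 of 31 (19.7%, 41.3% and 19.4%, the first and last near the 16.5% of all genes). In the most abundant of the 5 level bins, 36.6% of all genes were called lower.

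These counts changed with the libraries and the scaling used. The cytosolic ribosomal proteins that fell numbered 12 without dark minus ATR replicate 2, 17 without dark minus ATR replicate 1, 19 without light plus ATR replicate 3, 58 without dark minus ATR replicate 3 and 63 without light plus ATR replicate 4. With spike-in scaling 0 cytosolic ribosomal proteins and 1 nuclear respiratory chain and ATP synthase gene fell, and the cytosolic ribosomal median was 0.01, on the other side of 0, as were those of the citric acid cycle and mitochondrial ribosomal proteins (both 0.05), translation factors (0.04) and tRNA synthetases (0.06). For glycolysis the spike-in median was -0.05 with 2 genes lower, and pck-1 still fell. With the level trend removed, 0 cytosolic ribosomal proteins, 8 mitochondrial ribosomal proteins, 8 translation factors and 0 tRNA synthetases were lower. For nuclear respiratory chain, glycolysis and citric acid cycle genes the numbers lower were then 10, 8 and 8. Higher were 3 cytosolic ribosomal proteins, 3 translation factors, 1 tRNA synthetase, 2 glycolysis genes and 4 citric acid cycle genes.

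The strongest departures from a sum of single factors were in genes already named. Above the sum were asp-12 (interaction 3.38 ± 0.22, adjusted p = 4.74e-07), ugt-18 (3.05 ± 0.40, 3.16e-04), clec-70 (2.87 ± 0.31, 3.57e-06) and ech-9 (2.21 ± 0.30, 4.26e-04). Below it were acdh-2 (-4.29 ± 0.31, adjusted p = 5.39e-07), F53F1.4 (-2.12 ± 0.24, 8.91e-05), F58G6.9 (-1.91 ± 0.18, 4.27e-07) and B0507.8 (-1.90 ± 0.13, 5.90e-09), which was at 9.11, 6.98, 5.74 and 7.33 CPM with both factors and 26.6, 29.5, 29.1 and 31.8 CPM with neither. lite-1, the worm's own blue light receptor, was at 3.41, 2.95, 3.23 and 3.49 CPM in light plus ATR and 2.66, 3.76, 3.59 and 3.13 CPM in dark minus ATR, in overlapping groups (log2 0.00 ± 0.14, adjusted p = 0.997).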

How the data were processed

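Poly(A) RNA of whole young adults was sequenced in 4 biological replicates of 4 conditions with spike-in RNA. The authors deposited estimated counts per gene, made with an nf-core RNA-seq pipeline on WBcel235, and tested them with DESeq2 1.30.1 in R 4.0.3. The strand setting of the counting is not given in the sources used here. The worms shared a transgene whose channelrhodopsin sequence was not counted as a gene of its own.

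Estimated counts were rounded to whole numbers and fitted with edgeR 4.0.16 (limma 3.58.1, R 4.3.3), with a robust quasi-likelihood test, TMM scaling, filterByExpr and 1 coefficient per condition over all 16 libraries. Adjusted p-values are Benjamini-Hochberg values over 15044 genes, called below 0.05. CPM are TMM-scaled, log2 CPM use a prior count of 2, and SE is the size of the log2 fold change over the square root of F. Exact permutation tests, two-sided, served for single values such as shares of counts. Names and coordinates came from the Ensembl annotation of WBcel235. The fits were tested on simulated data.

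Genes were named by rule: the 12 largest protein-coding rises and falls (mean log2 CPM of at least 1, no overlap between the groups), up to 4 members of each list by p, 10 genes always given, 4 interactions in each direction, and members deciding a count of 5 or fewer. cyp-14A4, fat-2, fat-3, fat-4, fat-6, hsp-1, hsp-90, sti-1, vit-2, vit-5 and vit-6 fall outside it and were added with their values known. The contrast and the lists were chosen with earlier results of these data known. Alternatives were DESeq2 1.42.0, no filter, 4 other scalings, only the 8 libraries compared, a replicate block, each library left out, a 1.2-fold minimum and, added after the data were seen, removal of the trends with exon length and expression level.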

Additional observations from a re-analysis of the deposited data

Results flagged for a closer look

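In 324 groups of 4 libraries, the highest or the lowest was checked for a gap to the nearest of the others that was large against the group's range, and 22 groups met this. Chance alone gives about 1 in 20 such groups. Among library measures, light plus ATR replicate 2 had the lowest total of its group, 21266995 counts, dark minus ATR replicate 4 the highest spike-in share, 0.953%, and dark minus ATR replicate 1 the highest sperm share, 0.149%.

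Among genes of light plus ATR, replicate 4 stood high for tni-1 (97.8 CPM), nspd-10 (11.8 CPM), spe-4 (5.54 CPM), gst-4 (9.87 CPM) and rla-2 (464 CPM) and low for oma-2 (562 CPM). Replicate 1 stood high for sqst-1 (97.4 CPM) and hsp-16.11 (5.97 CPM) and low for asp-12 (302 CPM) and ech-9 (39.97 CPM). Replicate 2 was high for cpr-4 (1088 CPM), and replicate 3 was high for acdh-2 (2.00 CPM) and low for sbt-1 (59.99 CPM).

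Among genes of dark minus ATR, replicate 4 stood high for gst-10 (45.9 CPM), cpr-4 (503 CPM) and acdh-9 (95.8 CPM), and replicate 1 stood low for ugt-19 (12.006 CPM), flp-18 (21.3 CPM) and ilys-4 (4.15 CPM).

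The effect of light differed between worms with and without ATR, by the edgeR interaction test, for 787 genes. The interaction on the log2 scale was 3.38 for asp-12, 3.05 for ugt-18, 2.87 for clec-70, 2.21 for ech-9, -4.29 for acdh-2, -2.12 for F53F1.4, -1.91 for F58G6.9 and -1.90 for B0507.8.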

How the results depend on the processing

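The numbers of genes higher and lower, 3068 and 2478, kept within 1.5 times under DESeq2 (2761 and 2775), without a filter, with median-of-ratios factors and in the 8 libraries alone. A 1.2-fold minimum left 1665 higher and 394 lower, 282 interaction genes and 6 genes for ATR alone. Library totals as scaling gave 908 lower and spike-in totals 396, with 420 interaction genes, and removing the length trend gave 3928 lower. The median of all genes was 0.10 with library totals and 0.16 with spike-in totals, and 81.9% and 90.7% of the genes called were then higher, against 55.3% with TMM, 80.9% with the 1.2-fold minimum and 41.9% with the length trend removed. Light alone, 0 genes by edgeR, gave 177 by DESeq2, 4 without a filter, 2 with library totals and 3 with spike-in totals. ATR alone gave 23 by DESeq2. Of 59 lists, 30 had a median above 0, and 47 with spike-in totals.

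Leaving out each library in turn gave 2591 to 2895 genes higher, 2031 to 2598 lower, 646 to 787 interaction genes, 0 to 9 for light alone, 5 to 10 for ATR alone and 28 to 30 lists above 0. Of 154 named genes, 28 changed their call under some setting and 0 of the genes called changed sign. Most were small falls that did not pass with spike-in scaling, hsp-4 among them (log2 -0.21, adjusted p = 0.0921 by edgeR). The cause of these changes was not tested.

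Deviations of same-numbered libraries of the 2 groups correlated weakly (r = 0.0487, 0.0746, 0.0677 and 0.0631), against -0.137 to 0.129 for differing numbers. The own number was the best match for 1 of 4 libraries in each group. These values do not settle whether the numbers pair the samples. With the replicate block there were 3153 genes higher, 2669 lower and 1062 with an interaction, with 0 for light alone and 9 for ATR alone, and nlp-29 passed (adjusted p = 0.00146 by edgeR). Depth limits the smallest genes, such as hsp-16.2 and hsp-16.41, which could not be tested.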

Other observations

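Counts by gene symbol prefix were taken after the values were seen and without a test, and some of 80 families are given here. Over all genes tested 20.4% rose and 16.5% fell. The families were not kept apart from the lists above, sperm genes included, so a gene can be counted in both. All 28 msp genes, near-identical copies of the major sperm protein, were higher in light plus ATR by edgeR (median log2 0.87), with medians of 0.54 for light alone and 0.24 for ATR alone. Of 20 nep genes, which encode neprilysin-like metallopeptidases, 15 rose and 0 fell (median 0.48), and of 24 best genes, which encode bestrophin-like channels, 8 rose and 0 fell (0.32). Of 16 math genes 8 rose and 0 fell (0.30), and of 21 acs genes, for acyl-CoA synthetases, 9 rose and 2 fell (0.18). The nep, best and math median levels lay in the bin next to the lowest, where 34% of all genes rose and 5.38% fell. The best share of rises, 33.3%, was near that of this bin, and the nep and math shares were 75% and 50%. The acs median level lay in the middle bin, where 27.7% of all genes rose, against 42.9% of acs genes. In the other direction, 12 of 18 nspc genes, a nematode-specific peptide family, fell and 0 rose (-0.41), 10 of 24 npp genes for nuclear pore proteins fell (-0.10), and 12 of 29 dnj genes for J-domain cochaperones fell (-0.10). The npp and dnj shares were 41.7% and 41.4%. In the most abundant level bin, where the npp median level lay, 36.6% of all genes fell. In the bin next to it, where the dnj median level lay, 25.1% did.

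Nuclear hormone receptors, ligand-regulated transcription factors, gave 37 rises and 7 falls of 180 tested (20.6% and 3.89%, over all genes 20.4% and 16.5%). The median level of the nhr family lay in the level bin next to the lowest, where 34% of all genes rose and 5.38% fell. Against that bin the receptors had a lower share of rises and a similar share of falls. nhr-74 fell furthest among the nuclear hormone receptors tested (log2 -3.56 ± 0.31, adjusted p = 5.15e-08 by edgeR), although its exons overlap another gene, and nhr-114 fell as well (log2 -0.51 ± 0.04, adjusted p = 7.10e-09).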
